A study of Bos taurus with 13 samples.

Results

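The glucocorticoid receptor and the chaperones that carry it were examined in RNA from the blood of dairy cows with high or low cortisol in milk. Cortisol crosses the cell membrane and binds the receptor, the product of NR3C1, which waits in the cytoplasm in a complex with the chaperone HSP90. HSP90 is encoded by HSP90AA1 and HSP90AB1, STIP1 (Hop) passes the receptor to it from HSP70, and p23, the product of PTGES3, holds the mature complex in the form that binds hormone. The immunophilins FKBP5 and FKBP4 take turns at the same site of HSP90: FKBP5 keeps the receptor at low affinity, FKBP4 links it to transport towards the nucleus, and FKBP5 is itself a target that the active receptor induces.

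The 7 genes were chosen by name, and 6 of them had counts among the 16095 named genes in the data. STIP1 has no entry of that name and was not analysed here. The cows were Italian Red Pied by the labels (Italian Simmental in the methods of the study), from 1 commercial farm, lactating, clinically healthy and past their first calving. They came from both ends of a ranking of the herd by milk cortisol, with 7 cows in the high group (replicates 1 to 7) and 6 in the low group (replicates 8 to 13). The labels give no treatment, and the groups were formed by rank. The study selected more cows than these at each end, after leaving out cows with high somatic cell counts. It does not state why only 7 and 6 of them are in these data. Blood was taken into PAXgene tubes on the day of milking, so the RNA is that of all blood cells together, and a change in cell numbers and a change in RNA per cell cannot be told apart.

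Reads assigned to named genes ranged from 11045599 to 28124575 per cow. Of 10 haemoglobin gene names listed, 4 had an entry, and the haemoglobin share is that of these 4. They took 0.0282% to 0.815% of the reads assigned to named genes in the high group and 0.0114% to 0.0552% in the low group. This share differed between the groups (exact permutation test, two-sided, p = 0.0175). Markers of leukocytes were present in every cow. Levels are given in CPM, the counts of a gene scaled to a library total that was adjusted by a normalization factor for each cow. The summed level of 6 neutrophil markers was 4786 to 9584 CPM in the high group and 7433 to 10121 CPM in the low group. That of 8 T cell markers was 2322 to 3450 CPM and 2602 to 4033 CPM. High replicate 4 stood apart from the other cows on the first principal component of all genes tested, with a score of 62.4 against −31.3 to 19.1 in the others. Fold changes of the receptor and chaperone genes between the groups, and correlations among these genes, were also computed without it. Their correlations with other genes, with gene lists and with this component are given over all cows only. How far those rest on high replicate 4 was not tested.

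NR3C1 was counted over 9 exon blocks, 2395 bases in all, within positions 56235966 to 56350171 of chromosome 7 on the UMD3.1 assembly. HSP90AA1 is on chromosome 21 (68595873 to 68601204, 11 blocks, 3005 bases), PTGES3 on chromosome 5 (57091367 to 57112468, 8 blocks, 1816 bases), FKBP4 also on chromosome 5 (107445596 to 107453517, 10 blocks, 2095 bases) and FKBP5 on chromosome 23 (9521254 to 9637802, 11 blocks, 3711 bases). No exon of another named gene overlaps them. The entry named HSP90AB1 differs from the others in its layout. It lies on chromosome X (130065242 to 130067460), and its 7 blocks are separated by gaps of only 2 to 48 bases, with a median of 3, whereas the smallest gap in HSP90AA1 is 89 bases. RefSeq (assembly ARS-UCD2.0) places a gene of this name on another chromosome, as it does for 103 of the 14431 named genes whose symbols matched, 0.714%. Reads from near-identical HSP90AB1 sequence elsewhere may therefore be missing or added, and the values below belong to this X-linked stretch and are uncertain for the gene.

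The levels were first compared between the members per exon length, in TPM (counts divided by exon length and scaled to the same total in every cow). HSP90AA1 was the most abundant, at 511 ± 65.0 TPM (mean ± SD, n = 13 cows), and NR3C1 the least, at 12.2 ± 6.93 TPM. PTGES3 reached 285 ± 44.8 TPM, FKBP4 98.4 ± 15.4 TPM, the HSP90AB1 entry 82.8 ± 10.1 TPM and FKBP5 65.0 ± 13.0 TPM. The order HSP90AA1, PTGES3, FKBP4 held in each of the 13 cows, and so did FKBP5 above NR3C1. The middle of the order was less settled: FKBP4 was above HSP90AB1 in 11 of 13 cows and HSP90AB1 above FKBP5 in 11 of 13, and the ranges of these neighbours overlapped. In CPM, HSP90AA1 was above 98.8% of the 11033 genes tested and PTGES3 above 95.2%, while NR3C1 was above 41.6%. The receptor itself was thus a gene of middling level in blood, and the chaperones that hold it were among the abundant transcripts.

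Whether these levels followed milk cortisol was asked by comparing the high and low groups. None of the 6 genes passed a test of the difference. Across all 11033 genes tested, 0 passed an adjusted p of 0.05 (0% called, edgeR's quasi-likelihood test with Benjamini-Hochberg adjustment, smallest adjusted p = 0.998), and 231 had an unadjusted p below 0.05 (2.09%), 103 of them higher and 128 lower in the high group. DESeq2 called 1 gene, which is not among the 6, and limma-voom 0. Of the 6 genes 0 had an unadjusted p below 0.05. The groups overlapped in CPM for each of the 6, whereas 3 of all genes tested (0.0272%) did not overlap. The median log2 fold change of the 6 genes was −0.02, against 0.01 over all genes tested.

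NR3C1, the receptor, had 11.4 CPM in the lowest cow of the high group, a median of 15.8 CPM and 45.2 CPM in the highest cow. In the low group the lowest was 9.62 CPM, the median 17.0 CPM and the highest 20.4 CPM. The groups lay over the same range except for high replicate 4, whose 45.2 CPM (707 reads) was more than that of any other cow. The next highest cow of its group had 20.1 CPM. The log2 fold change, high against low, was 0.33 ± 0.30 (SE), and it was −0.02 without high replicate 4, so the positive value rested on that cow. The difference in mean log2 CPM was 0.25 (exact permutation test, two-sided, p = 0.491), with a 95% interval of 0.744 to 1.96 in fold. NR3C1 was the most variable of the 6 genes, with a 4.69-fold range over the 13 cows and an SD of 0.57 on the log2 scale, larger than that of 92.7% of the 1871 genes within 1.5-fold of its level.

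HSP90AA1, the stress-inducible form of HSP90, had 720, 954 and 1061 CPM in the lowest, median and highest cow of the high group. In the low group it had 872, 997 and 1053 CPM. The low group sat within the range of the high group, and the lowest values were those of high replicates 5 and 7. The log2 fold change was −0.10 ± 0.11, and the difference in means had p = 0.286 (exact permutation test) and an interval of 0.803 to 1.07 in fold. The X-linked entry named HSP90AB1, after the constitutive form, had 98.6, 116 and 125 CPM in the high group and 82.0, 111 and 142 CPM in the low group. Here the high cows sat within the range of the low cows. The HSP90AB1 entry had a log2 fold change of −0.01 ± 0.11 (exact permutation p = 0.984, interval 0.847 to 1.19 in fold). The ratio of HSP90AA1 to HSP90AB1 in TPM was 4.13 to 7.52 across the high cows and 5.29 to 8.62 across the low cows (exact permutation p = 0.510).

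PTGES3, which encodes p23, was among the steadiest of the 6 genes. It had 268, 328 and 359 CPM in the lowest, median and highest cow of the high group, and 261, 329 and 364 CPM in the low group. These ranges nearly coincided. The log2 fold change was −0.01 ± 0.11 (exact permutation p = 0.900), and the interval of 0.850 to 1.16 in fold was the narrowest of the 6 on the log2 scale except for that of HSP90AA1. The SD of log2 CPM over the 13 cows was 0.17 for PTGES3 and 0.17 for HSP90AA1, both below the median SD of 0.31 over all genes tested.

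FKBP4, the immunophilin that favours receptor transport, had 80.2, 123 and 156 CPM in the lowest, median and highest cow of the high group. In the low group it had 111, 133 and 175 CPM. Of the 7 cows of the high group 5 lay below the low group's median, and high replicates 4 and 6 lay below every low cow. The log2 fold change was −0.21 ± 0.14, but the groups did not differ beyond their spread (exact permutation p = 0.185, interval 0.672 to 1.08 in fold). FKBP5, the immunophilin induced by the active receptor, had 117, 148 and 196 CPM in the high group and 131, 146 and 183 CPM in the low group. Its highest level was again in high replicate 4, and its lowest in high replicate 7. The log2 fold change was −0.03 ± 0.13 (exact permutation p = 0.730, interval 0.787 to 1.19 in fold). The TPM ratio of FKBP5 to FKBP4, the 2 immunophilins that exchange on HSP90, had a median of 0.638 in the high group and 0.629 in the low group (exact permutation p = 0.531).

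**Figure D1:**
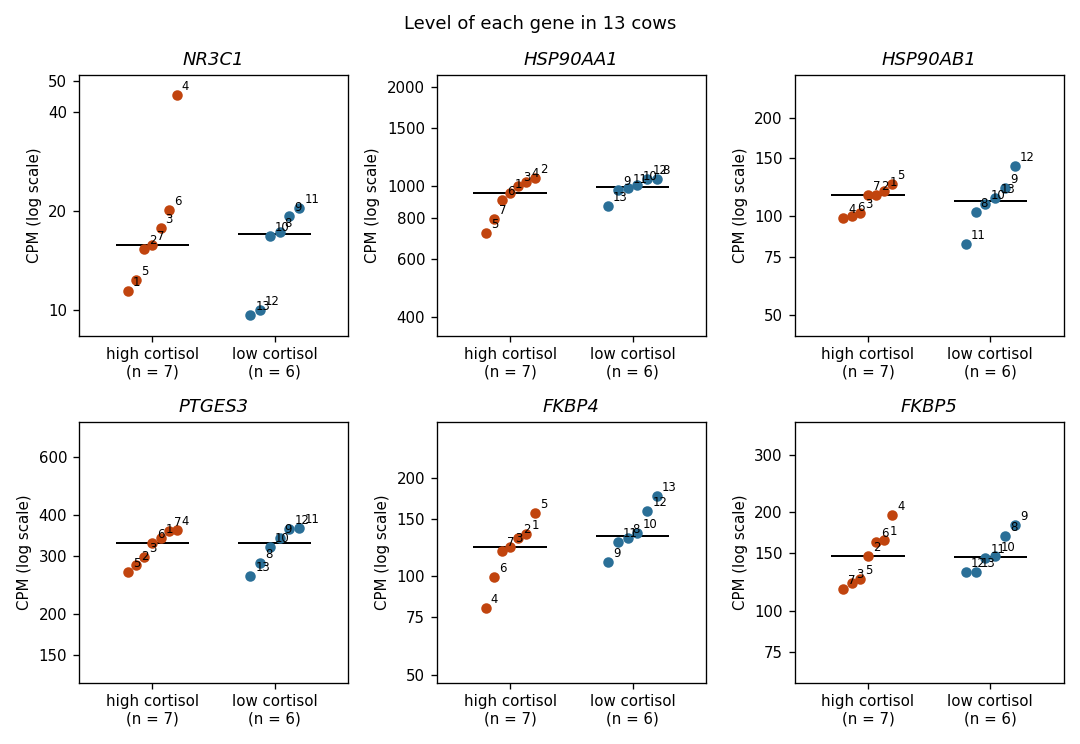
Level of each gene in CPM (vertical axis, log scale, each panel spanning the same fold) in the 7 high and 6 low cortisol cows. Each point is 1 cow with its replicate number and the line is the group median. The groups overlap in every panel, and NR3C1 in high replicate 4 (45.2 CPM) lies above all other cows.

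**Figure D2:**
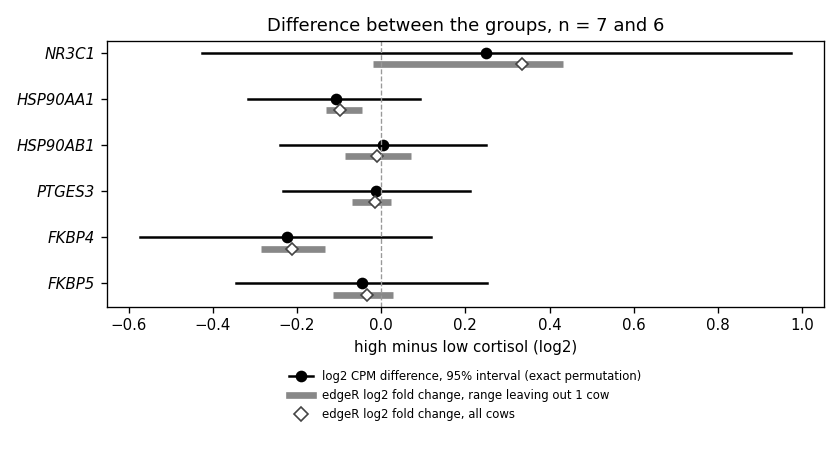
Difference between high and low cortisol cows for each gene on the log2 scale (n = 7 and 6). Black points are differences in mean log2 CPM with their 95% interval from the exact permutation test, open diamonds are edgeR log2 fold changes and grey bars their range when 1 cow is left out. All 6 intervals hold 0, and that of NR3C1 is the widest.

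Relations among the 6 genes over the 13 cows were examined next, for 15 pairs. NR3C1 and FKBP4 moved in opposite directions. High replicate 4 had the highest NR3C1 (45.2 CPM) and the lowest FKBP4 (80.2 CPM), and low replicate 13 the lowest NR3C1 (9.62 CPM) and the highest FKBP4 (175 CPM). Pearson's r was −0.92 (permutation p = 5e-05, 0.00075 adjusted over the 15 pairs) and Spearman's rho −0.86 (permutation p = 0.00049, adjusted 0.00735). Without the 2 cows farthest from the median of NR3C1, high replicate 4 and low replicate 13, r was −0.79, and without high replicate 4 alone it was −0.85. The relation had the same direction inside each group, with r = −0.93 in the high group (exact permutation p = 0.00258) and −0.93 in the low group (exact permutation p = 0.0111). Of the 11032 other genes tested, 22 had a lower r to NR3C1 than FKBP4 had (0.199%), and 28 had a lower r to FKBP4 than NR3C1 had (0.254%).

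**Figure D3:**
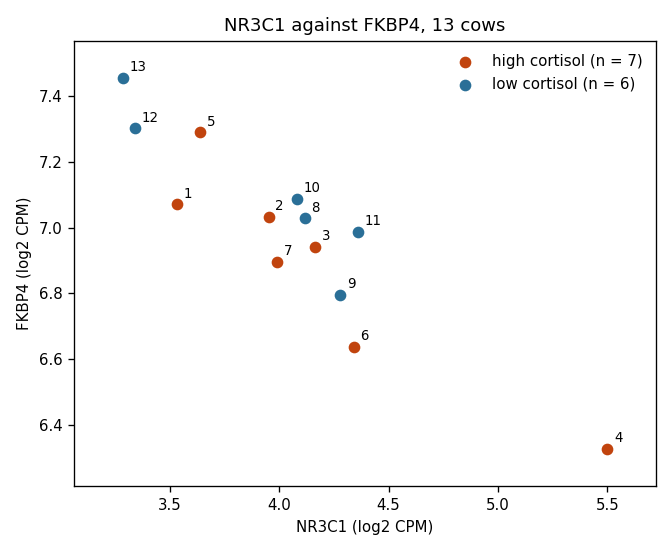
NR3C1 against FKBP4 in log2 CPM, 1 point per cow with its replicate number, coloured by group. Cows with more NR3C1 had less FKBP4 in both groups (r = −0.92 over 13 cows), from low replicate 13 at the top left to high replicate 4 at the bottom right.

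The other 14 pairs did not pass the adjustment by Pearson's r. NR3C1 and the HSP90AB1 entry had r = −0.62 (permutation p = 0.0308, adjusted 0.115) and rho = −0.74 (permutation p = 0.00546, adjusted 0.0409). This pair passed by rank only. Its r was −0.78 without high replicate 4 and low replicate 13, −0.81 within the high group (exact permutation p = 0.00377) and −0.63 within the low group (exact permutation p = 0.207). FKBP5 went with NR3C1 (r = 0.60, permutation p = 0.0241, adjusted 0.115) and against FKBP4 (r = −0.63, permutation p = 0.0196, adjusted 0.115), but r fell to 0.31 and −0.40 without high replicate 4 and low replicate 13, so both relations rested in part on those cows. HSP90AA1 and HSP90AB1 had r = −0.21 (permutation p = 0.478, adjusted 0.512). Of the 15 pairs, 1 had an r beyond 0.7 in size, and 8.45% of all 60858028 pairs of genes tested did. The median r was −0.14 over the 15 pairs and −0.00 over all pairs, so the 6 genes did not rise and fall as a unit.

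Each gene was also set against measures of cell content and response in the same cows, in 30 relations: the neutrophil, T cell, interferon and glucocorticoid-induced scores (the mean centred log2 CPM of the genes in each list) and the log2 haemoglobin share. No relation passed the adjustment by Pearson's r or by Spearman's rho. HSP90AA1 was higher in cows with a higher neutrophil score (r = 0.65, permutation p = 0.0134, adjusted 0.295, and rho = 0.70, permutation p = 0.00906, adjusted 0.136). It was lower in cows with a higher T cell score (r = −0.62, permutation p = 0.0219, adjusted 0.295, and rho = −0.76, permutation p = 0.00369, adjusted 0.111). Within the groups r to the neutrophil score was 0.62 (high, exact permutation p = 0.155) and 0.64 (low, exact permutation p = 0.144). For the T cell score it was −0.80 (high, exact permutation p = 0.0298) and −0.81 (low, exact permutation p = 0.0292). HSP90AA1 was also lower where the haemoglobin share was higher (r = −0.58, permutation p = 0.0389, adjusted 0.295), but r was 0.14 without high replicates 5 and 7, on which that relation rested. FKBP4 had r = −0.37 with that share (permutation p = 0.206) and rho = −0.56 (permutation p = 0.0498, adjusted 0.299). NR3C1 had r = 0.29 (permutation p = 0.339). Without high replicates 5 and 7, r was −0.75 for FKBP4 and 0.66 for NR3C1. Within the low group it was −0.81 and 0.76, and within the high group 0.0068 and 0.035. The part of cell content in the levels of HSP90AA1, FKBP4 and NR3C1 was not tested further. NR3C1 had r = 0.46 with the neutrophil score and 0.03 with the T cell score, and FKBP4 −0.30 and 0.015. When the neutrophil minus T cell score was taken out of both genes, r between NR3C1 and FKBP4 was −0.92. The haemoglobin share and the other cell scores were not taken out, so the part of cell content in this relation was not tested beyond that score. With the glucocorticoid-induced score, r was 0.53 for NR3C1 (permutation p = 0.0590), 0.45 for HSP90AA1 (permutation p = 0.126) and 0.39 for FKBP5 (permutation p = 0.189). It was −0.51 for HSP90AB1 (permutation p = 0.0758), −0.36 for FKBP4 (permutation p = 0.234) and −0.32 for PTGES3 (permutation p = 0.290). FKBP4 had r = 0.54 with the interferon score (permutation p = 0.0544) and rho = 0.66 (permutation p = 0.0162, adjusted 0.162). The other r to that score were 0.32 for HSP90AB1, −0.0037 for HSP90AA1, −0.090 for FKBP5, −0.39 for NR3C1 and −0.44 for PTGES3.

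**Figure D4:**
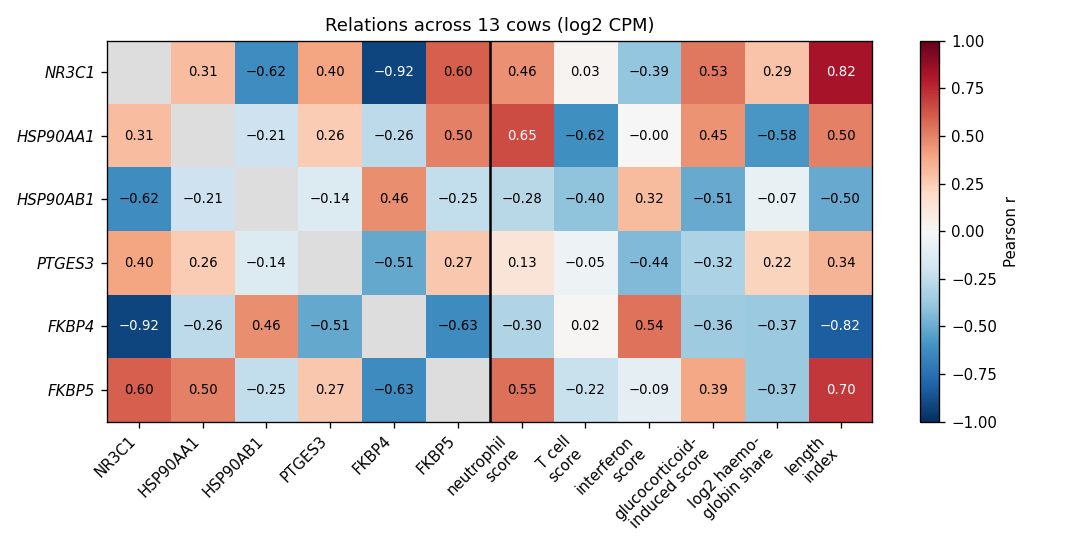
Pearson's r over the 13 cows between the 6 genes (left of the line) and between each gene and the cell and response scores, the haemoglobin share and the length index (right of the line), all on log2 scales. Red is positive and blue negative, and grey cells are a gene against itself. The strongest value is that of NR3C1 and FKBP4 (−0.92), and both genes also stand out against the length index (0.82 and −0.82).

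The genes most like each member over the 13 cows were picked by Pearson's r among all genes tested, so their r is a description. NR3C1 went with PPP1R12A, the targeting subunit of myosin phosphatase (r = 0.97), UBR2, a ubiquitin ligase (0.96), and ANKRD44, an ankyrin repeat protein (0.96). FKBP4 went with MRPL2, of the mitochondrial ribosome (0.97), PEX19, a carrier of peroxisomal membrane proteins (0.96), and NACC1, a nuclear repressor (0.96). FKBP5 went with IL13RA1, a receptor chain for interleukin 13 (0.90), MFSD6 (0.90) and GLUD1, glutamate dehydrogenase (0.89). HSP90AA1 was nearest to VNN2, a surface protein abundant on neutrophils (0.91), RNASE4 (0.88) and PAFAH1B1 (0.85). HSP90AB1 was nearest to NOA1 (0.89), GDI2, which keeps Rab proteins in solution (0.85), and HLA-DOB, of the class II antigen pathway (0.84). PTGES3 went with PRELID3B (0.94), KIAA1143 (0.93) and TMOD1, an actin capping protein of red cells (0.93). The 6 genes differed in how many others resembled them: an r above 0.8 was found for 676 genes with NR3C1 (6.13%), 542 with FKBP4, 321 with PTGES3, 60 with FKBP5, 18 with HSP90AA1 and 10 with HSP90AB1.

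The genes that resembled NR3C1 were longer than those that resembled FKBP4. The median exon length was 2884 bases for the 676 genes with r above 0.8 to NR3C1, 1640.5 bases for the 542 with r above 0.8 to FKBP4, and 2029 bases over all genes tested. A length index was therefore computed for each cow after these data were seen: the median centred log2 CPM of the 3677 genes with the longest exons (above 2583 bases) minus that of the 3677 with the shortest (below 1584 bases). NR3C1 (2395 bases) and FKBP4 (2095 bases) are themselves of middle length and in neither set. FKBP5 (3711 bases) and HSP90AA1 (3005 bases) are in the long set. The index had a median of −0.08 in the high group (−0.17 to 0.26) and −0.02 in the low group (−0.11 to 0.12), and did not differ between them (exact permutation p = 0.919). Its highest value was that of high replicate 4 and the next that of high replicate 6, the cows with the least FKBP4.

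Since the index was built on the lengths of genes that resemble NR3C1 and FKBP4, its relations to the members are a description and no p is given. NR3C1 was higher in cows with a higher index (r = 0.82, rho = 0.80) and FKBP4 lower (r = −0.82, rho = −0.72). Without high replicates 4 and 6, the cows farthest from the median of the index, r was 0.62 for NR3C1 and −0.54 for FKBP4. Within the high group r was 0.91 for NR3C1 and −0.95 for FKBP4, and within the low group 0.65 and −0.72. For FKBP5 r was 0.70 and rho 0.62, and for HSP90AA1, HSP90AB1 and PTGES3 r was 0.50, −0.50 and 0.34. After a linear fit on the index was taken out of both genes, r between NR3C1 and FKBP4 was −0.76. After the first principal component of all genes (29.0% of the variance) was taken out instead, it was −0.62. Both measures were added after these data were seen, so these r are a description too and decide nothing about the relation. Both genes followed that component, NR3C1 with r = 0.87 and FKBP4 with r = −0.92, and it includes them. RNA integrity of single cows was not analysed here, and what in the cows or in the RNA moves with the index was not tested.

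**Figure D5:**
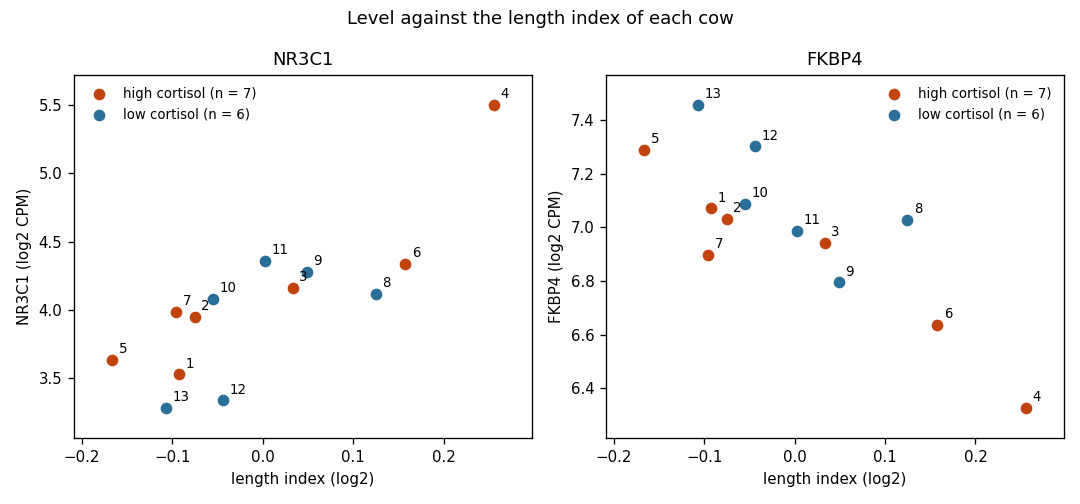
NR3C1 (left) and FKBP4 (right) in log2 CPM against the length index of each cow, 1 point per cow with its replicate number, coloured by group. NR3C1 is higher and FKBP4 lower in cows with a higher index (r = 0.82 and −0.82), and high replicate 4 is at the end of both panels.

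The remaining genes of the pathway were taken from 4 lists. Over all 11033 genes tested, 2.09% had an unadjusted p below 0.05. At that share, a count of 0 in a list of 13 or 17 genes does not set the list apart. Of 17 other chaperones and co-chaperones tested, 0 had an unadjusted p below 0.05 in either direction, and their median log2 fold change was −0.06 (6 of 17 positive) against 0.01 over all genes. The most abundant per length was HSPA8, the constitutive HSP70 that first receives the receptor, at 1508 TPM (log2 fold change −0.08 ± 0.11). HSP90B1, the HSP90 of the endoplasmic reticulum, had 231 TPM (−0.20 ± 0.18), NUDC, a co-chaperone of HSP90, 209 TPM (−0.12 ± 0.14), and TTC4, another HSP90 co-chaperone, 25.2 TPM (0.16 ± 0.10). These chaperones tended to go with FKBP4 and against NR3C1 over the cows: r was positive to FKBP4 for 13 of 17 (median 0.67) and to NR3C1 for 4 of 17 (median −0.59). Over all 11031 other genes the medians were 0.01 and 0.00, and 95.1% had r of opposite sign to the 2 genes. NUDC was the clearest of those named, with r = 0.92 to FKBP4 and −0.91 to NR3C1, and HSPA8 had 0.67 and −0.72. HSP90B1 had 0.087 and −0.22, and TTC4 went the other way, with −0.49 to FKBP4 and 0.52 to NR3C1.

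Of 13 genes of the heat shock response tested, 0 had an unadjusted p below 0.05. Their median log2 fold change was −0.08 (2 of 13 positive), against 0.01 over all genes. HSPB1, a small heat shock protein, was at 1137 TPM (−0.11 ± 0.18), HSPE1, the mitochondrial co-chaperonin, at 450 TPM (−0.14 ± 0.15), and AHSA1, the activator of the HSP90 ATPase, at 161 TPM (−0.06 ± 0.10). SERPINH1, a collagen chaperone, had the smallest p, at a log2 fold change of −0.34 ± 0.21, and CRYAB, another small heat shock protein, the next (−0.83 ± 0.64). HSPA4L, an HSP110 relative, had 0 to 12 reads per cow and was below the filter. AHSA1, which is also among the 17 chaperones, went with FKBP4 (r = 0.89) and against NR3C1 (r = −0.80). Over the list r was positive to FKBP4 for 8 of 13 (median 0.11) and to NR3C1 for 6 of 13 (median −0.22). CHORDC1, an HSP90 co-chaperone chosen after its values were seen, went the other way (−0.78 to FKBP4 and 0.75 to NR3C1).

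Of 13 genes tested that act with the receptor (coregulators, import and hormone metabolism), 0 had an unadjusted p below 0.05. Their median log2 fold change was −0.03 (4 of 13 positive), against 0.01 over all genes. TRIM28, a corepressor, had 243 TPM (−0.07 ± 0.14), DAXX, a histone chaperone and repressor, 139 TPM (−0.15 ± 0.11), and KPNA2, an importin alpha, 62.9 TPM (−0.19 ± 0.15). All of these went with FKBP4 (r = 0.88, 0.95 and 0.87) and against NR3C1 (r = −0.91, −0.89 and −0.89), but the list was divided: r was positive to FKBP4 for 7 of 13 (median 0.24) and to NR3C1 for 6 of 13 (median −0.24). The coactivators EP300 and MED1, chosen after their values were seen, went the other way, with r = 0.88 and 0.83 to NR3C1 and −0.79 and −0.77 to FKBP4. Several genes of hormone access were below the filter. The mineralocorticoid receptor NR3C2, which also binds cortisol, had 0 to 2 reads per cow, and the enzymes HSD11B1 and HSD11B2, which interconvert cortisol and cortisone, had 0 to 8 and 0 to 10. SERPINA6, the cortisol-binding globulin that the liver secretes, had 0 reads in each of the 13 cows, which allows up to 3 reads per cow, or 0.107 to 0.272 CPM before scaling, for counting error only.

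Of 17 glucocorticoid-induced genes tested, 0 had an unadjusted p below 0.05. Their median log2 fold change was 0.03 (11 of 17 positive), against 0.01 over all genes. ANXA1, annexin A1, had 1240 TPM (0.03 ± 0.19), TXNIP, the thioredoxin-binding protein, 1217 TPM (0.03 ± 0.13), and TSC22D3 (GILZ), a mediator of the response in leukocytes, 502 TPM (−0.17 ± 0.17). DUSP1, a phosphatase that switches off MAP kinases, had the smallest p, at 136 ± 17.3 CPM in the high group (SD, n = 7) and 165 ± 44.2 CPM in the low group (SD, n = 6), a log2 fold change of −0.28 ± 0.16. ZBTB16, a transcription factor that glucocorticoids induce in many cells, followed at 1.32 ± 0.463 CPM and 0.866 ± 0.383 CPM (0.58 ± 0.34). Over the list r was positive to NR3C1 for 12 of 17 (median 0.40) and to FKBP4 for 7 of 17 (median −0.23). The named targets had log2 fold changes on both sides of 0, as FKBP5 did within its own interval.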

How the data were processed

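Blood RNA of 13 cows was sequenced without globin depletion. The authors deposited counts per gene name, whole numbers without normalization. Per the file headers they were made with featureCounts 1.4.6-p3, which summed exons by gene name over the Ensembl release 88 models of UMD3.1, and set nothing for strand, for pairs or for multiply mapped reads. The submitters' processing notes name STAR 2.7.3, Subread 1.6.5 and ARS-UCD1.2 instead, and which build the reads were aligned to is not settled by the headers. The headers also point to an alignment folder named for goat and give an animal number unlike that of the table, so the groups rest on the sample labels alone. The unnamed entry (13.9% to 16.7% of counts) was left out.

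From the deposited counts, log2 CPM (prior count 2) was computed after TMM normalization, and TPM over named genes from the exon lengths in the tables. High and low cows were set against each other in edgeR 4.0.16 (quasi-likelihood test, robust, filterByExpr with minimum count 10 and minimum total 15, no covariate) in R 4.3.3, with Benjamini-Hochberg adjustment over 11033 genes. The alternatives used DESeq2 1.42.0 and limma 3.58.1. Permutation tests were two-sided. Those between groups were exact over the 1716 splits of the cows, with 5.8e-04 the smallest p they can give, and the intervals are their inversion. Correlations over 13 cows used 100000 permutations, and those within a group every ordering of its cows. The fits were tested on simulated data. The cows are separate animals with 1 library each, and no 2 libraries were identical.

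The members, the gene lists and the alternatives were chosen with earlier results of these data known, and the length index and the first principal component were added after these data were seen. The text names the 6 members, the 3 genes most alike to each by Pearson's r, and, in each pathway list, the genes with an unadjusted p below 0.05 or else the 2 with the smallest p, the 3 with the highest TPM and those below the filter. CHORDC1, EP300 and MED1 are named outside this rule, after their values were seen. Gene lists of cells and responses gave the scores. For the B cell, monocyte, NK cell and platelet scores the groups did not differ at 0.05 (exact permutation p = 0.443, 0.642, 0.183 and 0.564). Nor did they for the neutrophil, T cell and glucocorticoid-induced scores (exact permutation p = 0.295, 0.904 and 0.576). The interferon score was −0.82 in the high group minus the low group (exact permutation p = 0.0938). The erythroid score was higher in the high group (exact permutation p = 0.0186). Sequences are not printed here.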

Additional observations from a re-analysis of the deposited data

Results flagged for a closer look

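The level of NR3C1 in high replicate 4 was far from the rest of its group. Its log2 CPM was 5.50, and the next highest cow of the high group had 4.34. The gap to that cow was 0.589 of the range of the group, above the 95% limit of Dixon's test for 7 values (0.568). This was 1 of 28 such comparisons, among which chance gives about 1.4. The same cow had the lowest FKBP4 and the highest FKBP5 of the 13, and the highest length index (0.26). Its depth of 14298265 reads and its haemoglobin share of 0.0968% lay within the range of the other cows. The part of these measures in its NR3C1 level was not tested.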

How the results depend on the processing

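No paired analysis was possible because the replicate numbers of the high and low groups do not overlap. The 6 members were compared under 24 alternatives, and no adjusted call was made for any of them. DESeq2 called 1 of all genes, in place of 0. With the length index as a covariate, chosen after seeing the data, 1 member passed an unadjusted p of 0.05, FKBP4 (log2 fold change −0.22). Its unadjusted p from edgeR was 0.0220, the smallest of any member under any of them, and 0 genes passed after adjustment. FKBP4 stayed below 0 throughout, from −0.29 to −0.13. NR3C1 ran from −0.019 (without high replicate 4) to 0.43 with 1 cow left out. Members near 0 changed sign: with the haemoglobin covariate FKBP5 was 0.10, HSP90AA1 0.023 and HSP90AB1 0.014, with the neutrophil minus T cell covariate FKBP5 was 0.011, with limma-voom HSP90AB1 was 0.0096, and with upper-quartile factors HSP90AB1 was 0.0059 and PTGES3 0.0011. With 1 cow left out FKBP5 ran from −0.11 to 0.027, HSP90AB1 from −0.085 to 0.070 and PTGES3 from −0.069 to 0.024. The cause was not tested.

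The number of pairs passing the adjustment by Pearson's r was 1 and became 3 on plain library sizes, 2 with group means taken out, 1 to 2 with 1 cow left out (2 without high replicate 7) and 0 with the first principal component taken out. The pairs added were FKBP4 with FKBP5 and, on plain library sizes, NR3C1 with FKBP5. NR3C1 and FKBP4 kept r between −0.94 and −0.85 with 1 cow left out. Weak relations changed sign. On plain library sizes r was 0.15 for HSP90AB1 and PTGES3, −0.12, 0.086 and 0.39 for the T cell score with FKBP4, FKBP5 and PTGES3, and 0.14 for HSP90AB1 with the haemoglobin share. With the length index taken out, r was −0.21 for NR3C1 and HSP90AA1, 0.32 for FKBP4 and HSP90AA1, 0.18 for FKBP5 and HSP90AB1, 0.060 for HSP90AA1 and HSP90AB1, and 0.037 for HSP90AB1 and PTGES3. With the first principal component taken out, r of PTGES3 was −0.53 with NR3C1, 0.36 with FKBP4, −0.26 with FKBP5 and 0.22 with HSP90AB1, while r was 0.12 for FKBP4 and HSP90AA1 and 0.023 for FKBP5 and HSP90AB1. With 1 cow left out, r ran from −0.069 to 0.46 for HSP90AA1 and PTGES3, −0.41 to 0.12 for HSP90AB1 and PTGES3, −0.17 to 0.26 for NR3C1 and the T cell score, −0.26 to 0.19 for FKBP4 and the T cell score, −0.25 to 0.23 for PTGES3 and the T cell score, −0.0074 to 0.37 for PTGES3 and the neutrophil score, −0.30 to 0.065 for FKBP5 and the interferon score, −0.20 to 0.45 for HSP90AA1 and the interferon score, and −0.19 to 0.040 for HSP90AB1 and the haemoglobin share. Relations of HSP90AA1 kept their sign but not always their size. Under the alternatives that kept all cows, r ran from −0.62 to −0.27 for the T cell score. For the haemoglobin share it ran from −0.58 to −0.32, and for the neutrophil score from 0.65 to 0.66. With 1 cow left out, r of HSP90AA1 and the T cell score ran from −0.75 to −0.56. No relation to a score passed by Pearson's r under any alternative.

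The intervals of the members are wide for 7 and 6 cows, up to 1.96-fold for NR3C1 with high replicate 4 included, so a missed threshold does not show that the groups are alike.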
